A study of Mus musculus with 6 samples.

Results

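The mitochondrial ribosomal protein genes encode the proteins of the mitoribosome. They were taken as every gene of the expression table whose symbol starts with Mrpl or Mrps followed by a digit, which gave 78 of 18268 genes, 49 Mrpl and 29 Mrps. Levels were measured by bulk RNA sequencing in the colorectum of 6 C57BL/6 mice with colitis. For 7 days all 6 mice were given DSS (dextran sulfate sodium), which damages the lining of the colon. A group of 3 mice was gavaged with berberine (BBR), a plant alkaloid, for 6 days, and the other 3 with sulfasalazine (SASP), an aminosalicylate drug used against ulcerative colitis, for the same time. The methods of the study describe adult male mice of this wild-type strain. Healthy mice and colitis mice without a drug were not analysed here, so each difference is BBR against SASP within DSS colitis. Nothing in the labels says how the RNA of each mouse relates to cage or batch. The p-values set the difference between the groups against the spread among the 3 mice within each group.

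The mitoribosome sits in the mitochondrial matrix and translates the few mRNAs of the mitochondrial genome, which encode core subunits of the respiratory chain and of ATP synthase. Its RNAs come from the mitochondrial genome, but all of its proteins are encoded in the nucleus, made in the cytosol and imported. The large subunit holds the peptidyl transferase centre, the tunnel through which the new chain leaves and the stalk that binds translation factors, while the small subunit decodes the mRNA. Many of the proteins descend from bacterial ribosomal proteins and others are found in mitochondria alone. Epithelial cells of the colon draw much of their energy from oxidation of butyrate in mitochondria.

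The promoters of nuclear genes for mitochondrial proteins often carry short sites for NRF1 and for ETS factors such as GABPA, and so the windows from 250 bases before to 50 bases after the start were read from RefSeq (GRCm38.p6). Windows were given for 69 of the 78 genes, 75 in all, and the sequences are those of the reference, not of these mice. Motifs were searched on both strands. They were CCGGAAG for ETS factors, GCATGCGC for NRF1, AAGATGGCG for YY1 and CACGTG for the E-box, which is bound by Myc and by the clock factors. The windows of 3 genes that were lower in BBR mice and of 2 genes that were higher in BBR mice once BBR mouse 3 was left out (both are described further on) are shown 5′ to 3′, with every motif match, on either strand, in capitals.
Mrpl18 (chr17:12916042-12916341, minus strand): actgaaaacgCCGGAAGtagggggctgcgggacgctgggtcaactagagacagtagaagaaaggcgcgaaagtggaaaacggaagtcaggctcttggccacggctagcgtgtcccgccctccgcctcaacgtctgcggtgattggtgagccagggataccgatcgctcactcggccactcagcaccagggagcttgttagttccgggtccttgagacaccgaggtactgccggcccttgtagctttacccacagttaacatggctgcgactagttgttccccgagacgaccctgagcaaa
Mrpl27 (chr11:94653541-94653840, plus strand): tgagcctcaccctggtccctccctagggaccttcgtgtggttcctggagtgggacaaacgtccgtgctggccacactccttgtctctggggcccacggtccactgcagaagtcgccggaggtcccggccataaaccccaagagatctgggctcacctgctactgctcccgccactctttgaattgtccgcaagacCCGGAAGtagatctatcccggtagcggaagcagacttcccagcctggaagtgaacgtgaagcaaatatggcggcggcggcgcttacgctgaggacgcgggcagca
Mrps18b (chr17:35916391-35916690, minus strand): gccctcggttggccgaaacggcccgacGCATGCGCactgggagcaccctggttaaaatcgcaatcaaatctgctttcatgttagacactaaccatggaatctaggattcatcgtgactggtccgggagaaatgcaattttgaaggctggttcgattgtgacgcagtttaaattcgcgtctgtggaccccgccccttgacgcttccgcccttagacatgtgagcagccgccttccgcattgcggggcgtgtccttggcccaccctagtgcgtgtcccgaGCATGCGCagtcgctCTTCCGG
Mrpl9 (chr3:94443086-94443385, plus strand): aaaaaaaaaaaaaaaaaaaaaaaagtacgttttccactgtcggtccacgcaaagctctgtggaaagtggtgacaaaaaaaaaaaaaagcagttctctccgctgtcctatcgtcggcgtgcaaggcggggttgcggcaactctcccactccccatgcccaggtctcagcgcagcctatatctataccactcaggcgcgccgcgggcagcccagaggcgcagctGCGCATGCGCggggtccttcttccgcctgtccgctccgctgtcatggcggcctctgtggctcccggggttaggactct
Mrpl43 (chr19:45006393-45006692, minus strand): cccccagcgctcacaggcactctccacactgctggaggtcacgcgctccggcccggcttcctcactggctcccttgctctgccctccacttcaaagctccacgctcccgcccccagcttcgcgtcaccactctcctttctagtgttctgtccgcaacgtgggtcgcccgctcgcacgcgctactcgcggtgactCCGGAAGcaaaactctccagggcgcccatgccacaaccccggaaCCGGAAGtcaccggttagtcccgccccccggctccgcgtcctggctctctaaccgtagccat
The ETS letters lay 240 bases before the start in Mrpl18 and 55 bases before it in Mrpl27. Mrps18b held the NRF1 letters 223 bases before and 29 bases after the start and the ETS letters 44 bases after it. The matches of Mrpl9 are those of NRF1 on both strands, 28 and 26 bases before the start and overlapping, and those of Mrpl43 are ETS letters 56 and 12 bases before the start. The windows of Mrpl24 and Mrps31, the other genes called higher without BBR mouse 3, held none of the 4 motifs. For Mrps28, another gene called lower, no window was given.

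Over all mitoribosomal windows, the ETS letters were found in 26 of 75, or 34.7%, against 8.86% of all 32851 mouse windows and 17.2% of the windows of genes expressed here. The NRF1 letters were in 8 windows (10.7%, against 2.71% of all windows and 4.96% of those of expressed genes), and the YY1 letters also in 8 (10.7%, against 1.40% and 2.95%). The E-box was in 7 windows of 5 genes, or 9.33%, against 7.15% of all windows and 9.83% of those of expressed genes. At least 1 of the motifs was found in 40 of the 75 windows. The median log2 difference between BBR and SASP mice was -0.23 for genes with the ETS letters and -0.20 for those without. For NRF1 it was -0.16 with and -0.22 without, for YY1 -0.31 and -0.19, and for the 5 genes with an E-box -0.43 and -0.20. These are matches of letters and describe no binding.

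The libraries corresponded to about 16400000 to 18200000 reads each, as estimated from the smallest steps of the deposited values. Levels are FPKM, a measure of fragments that corrects for the length of a transcript and the depth of its library, so they can be compared between genes. Between 11518 and 12307 genes reached 1 FPKM in a mouse. Epithelial markers were present in every mouse, with none of the 10 at 0 and a summed level of 7702 to 8496 FPKM in BBR mice and 7987 to 9050 in SASP mice. In smooth muscle markers BBR mouse 3 stood apart at the high end and SASP mouse 1 at the low end. They summed to 2888, 3046 and 6808 FPKM in BBR mice 1, 2 and 3 and to 757, 2321 and 1724 FPKM in SASP mice 1, 2 and 3. Some results that rest on BBR mouse 3 are given with and without it. The medians by place in the ribosome and those of the other gene lists are given with all mice only. In bulk tissue, fewer cells of a type and less RNA per cell cannot be told apart.

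All 78 genes passed the filter of at least 1 FPKM in at least 3 of the 6 mice, so none is missing from what follows. Their mean levels ran from 3.79 FPKM for Mrpl17, a protein of the exit tunnel region, to 83.4 FPKM for Mrps21 of the small subunit platform, a 22.03-fold range. The median was 23.4 FPKM, against 10.01 FPKM over the 12072 genes tested. Most of the genes, 54, lay between 10 and 40 FPKM, with 14 above and 10 below. The proteins are thought to be present once per ribosome with the exception of the stalk protein encoded by Mrpl12, while their mRNAs in this tissue spread over this range. Mrps21 measured 80.70, 79.30 and 78.05 FPKM in the BBR mice and 89.32, 83.40 and 89.54 FPKM in the SASP mice. Next in mean level came Mrps6, also of the platform, with 80.6 FPKM, Mrpl12 with 79.7 FPKM and Mrpl42, which has no bacterial counterpart, with 75.4 FPKM. Each gap between neighbours in this order was smaller than the larger SD of the pair within a group, so the order of these 4 is not resolved. At the low end Mrpl17 measured 3.85, 3.49 and 3.15 FPKM in BBR mice and 3.77, 4.48 and 3.97 FPKM in SASP mice. Mrpl19 followed with 3.83, 3.45 and 2.99 FPKM against 4.24, 5.49 and 4.86 FPKM, and Mrpl35 with 5.0, 5.38 and 4.30 FPKM against 6.24, 6.11 and 6.02 FPKM. The groups overlapped for Mrpl17 and did not for Mrpl19 and Mrpl35. The lowest of the small subunit genes were Mrps25 (mean 8.32 FPKM), Mrps2 (9.62 FPKM) and Mrps30 (9.99 FPKM). In reads, the thinnest gene was Mrpl41, at about 80 in its lowest mouse, and the median gene had about 520 in its lowest mouse.

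Between the groups, mitoribosomal genes lay mostly lower in BBR than in SASP mice, by a small amount. The log2 fold change, BBR minus SASP on the log2(FPKM + 1) scale, was below 0 for 68 of 78 genes (87.2%), against 39.2% of all genes tested. The median was -0.23, against 0.10 over all genes, with a range of -0.82 to 0.26. All 3 BBR mice lay below all 3 SASP mice for 38 genes (48.7%, against 16.6% of all genes), and the groups overlapped for the other 40. For none of the 78 genes did all BBR mice lie above all SASP mice, where 21.3% of all genes did. A single gene rarely passed the test across all genes. By limma with Benjamini-Hochberg adjustment, 4 were called lower in BBR mice and 0 higher at an adjusted p under 0.05. The 4 made up 5.13% of the genes against a background of 5.04% called lower, and 8.86% of all genes were called in either direction, so the share of calls was that of the background. At an unadjusted p under 0.05 the count was 32 lower (41.0%, against 13.4% of all genes) and 0 higher.

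**Figure D1:**
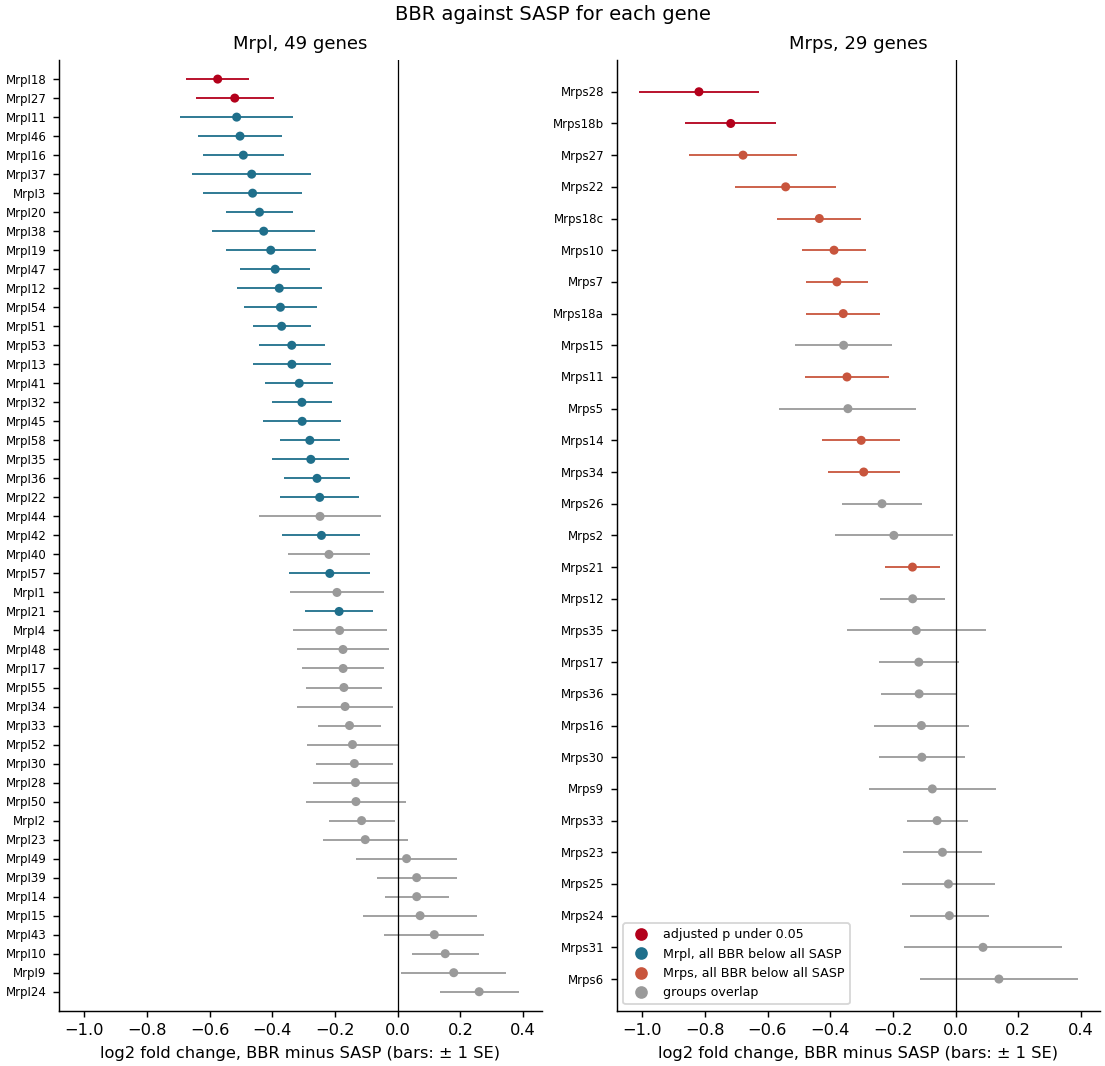
Log2 fold change (x axis, BBR minus SASP, log2(FPKM + 1) scale) of each of the 49 Mrpl and 29 Mrps genes, with bars of 1 SE from limma over 3 mice a group. Red marks the 4 genes with an adjusted p under 0.05, blue and orange the others with all BBR mice below all SASP mice, and grey those whose groups overlap; 68 of the 78 points lie left of 0.

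Genes of both subunits lay mostly lower. Of the Mrpl genes 41 of 49 were below 0, with a median of -0.24, 26 with all BBR mice below all SASP mice (53.1%) and 2 called (4.08%). Of the Mrps genes 27 of 29 were below 0, with a median of -0.20, 12 with groups apart (41.4%) and 2 called (6.90%). The symbols do not sort the subunits exactly. The proteins of Mrps18a and Mrps30 belong to the large subunit, Mrps36 is a component of the 2-oxoglutarate dehydrogenase complex, and some mitoribosomal proteins carry other names. Sorted by structure, the large subunit had 52 genes, of which 44 lay below 0 (median -0.25, 2 called), and the small subunit 30, of which 28 lay below 0 (median -0.22, 2 called). The mean log2 level of the Mrpl genes exceeded that of the Mrps genes by 0.074 to 0.15 in each mouse, and the widest gap was that of BBR mouse 3. Genes classed as mitochondria-specific (31, of which 27 below 0, median -0.24, 1 called) and as having a bacterial homologue (46, of which 40 below 0, median -0.20, 3 called) had medians close to each other. This sorting put Mrps18a and Mrps18b, the gene called, in the first class and Mrps18c in the second, although all are relatives of a single bacterial protein. Differences between these classes were not tested.

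Of the 4 genes called lower, Mrpl18 (gene ID 67681) encodes a large subunit protein of the central protuberance, the crest that faces the small subunit. It measured 45.38, 49.75 and 45.03 FPKM in BBR mice and 76.46, 67.27 and 66.70 FPKM in SASP mice, so the groups were well apart. The means were 46.7 ± 2.63 and 70.1 ± 5.48 FPKM (SD, n = 3 each), and the log2 fold change was -0.57 (SE 0.10, limma adjusted p = 0.0243). Mrpl27 (gene ID 94064) encodes a protein whose bacterial counterpart reaches towards the peptidyl transferase centre. Its values were 45.28, 39.73 and 39.13 FPKM in BBR mice and 66.67, 52.06 and 61.16 FPKM in SASP mice. The groups did not overlap, and the log2 fold change was -0.52 (SE 0.12, limma adjusted p = 0.0481).

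Both small subunit genes called lower had larger changes at lower levels. Mrps28 (gene ID 66230), with the largest fall of the 78 genes, measured 13.98, 13.92 and 9.45 FPKM in BBR mice and 27.38, 21.33 and 19.23 FPKM in SASP mice. The means were 12.4 ± 2.60 and 22.6 ± 4.23 FPKM, and the log2 fold change was -0.82 (SE 0.19, limma adjusted p = 0.0469). Mrps18b (gene ID 66973) is 1 of 3 mammalian relatives of a single bacterial protein, together with Mrps18a and Mrps18c. Its values were 14.96, 13.01 and 10.30 FPKM against 20.78, 22.57 and 20.88 FPKM. The SASP mice were close together and the BBR mice were spread below them, and the log2 difference was -0.72 (SE 0.14, limma adjusted p = 0.0342). The other relatives lay lower too without passing the test. Mrps18c gave 53.71, 51.01 and 48.83 FPKM against 82.69, 59.75 and 67.86 FPKM (-0.43, limma adjusted p = 0.0820). Mrps18a gave 22.83, 23.71 and 19.39 FPKM against 30.66, 25.94 and 28.66 FPKM (-0.36, limma adjusted p = 0.0946). In both the lowest SASP mouse was above the highest BBR mouse.

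The calls changed with the mouse left out and with the scaling. Leaving out any one mouse other than BBR 3 left 0 of the 78 genes called, where 0.378% to 2.55% of all genes were still called lower. Leaving out BBR mouse 3 kept all 4 calls and raised the count to 16 lower and 4 higher, as described further on. With the libraries rescaled by median ratios, which moved the median of all genes from 0.10 to -0.02, 32 members were called lower (41.0%, against 9.83% of all genes) and 0 higher. Over all genes the calls then split into 498 higher and 1186 lower, against 461 and 608 without the rescaling. With quantile normalization 21 members were called lower (26.9%, against 8.23% of all genes). The step between genes called and not called was narrow. Mrpl20, a large subunit protein, measured 24.87, 25.23 and 29.28 FPKM against 38.82, 34.42 and 35.48 FPKM, with groups apart and a log2 fold change of -0.44 (limma adjusted p = 0.0504). Mrps27, whose protein carries RNA-binding pentatricopeptide repeats, followed the 2 called Mrps genes in size of difference with 9.20, 11.06 and 6.70 FPKM against 14.52, 15.14 and 14.49 FPKM (-0.68, limma adjusted p = 0.0562).

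**Figure D2:**
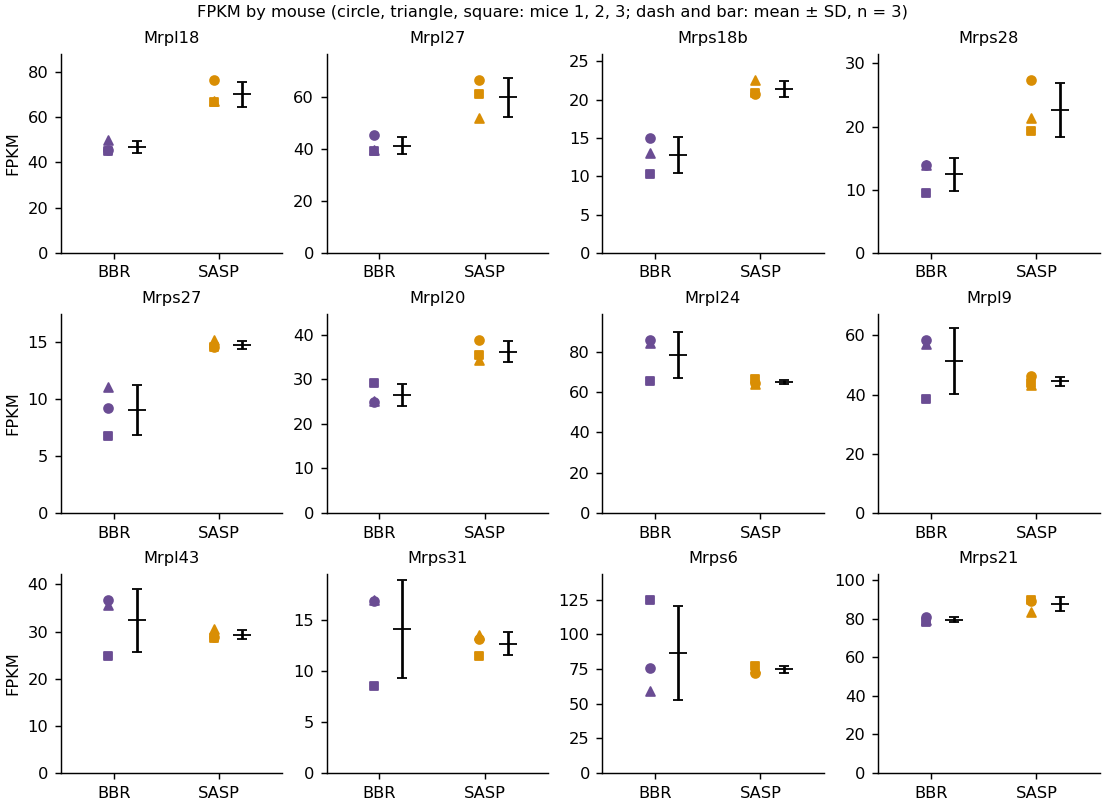
FPKM (y axis, each from 0) of 12 genes in the 3 BBR and 3 SASP mice, with mean ± SD beside the points. In the first row, which holds the 4 genes called lower, all BBR mice lie below all SASP mice; in Mrpl24, Mrpl9, Mrpl43 and Mrps31 the square of BBR mouse 3 lies far under the other 2 BBR mice, and in Mrps6 far over them.

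The grouping by place in the ribosome was made after the values were seen, and 83.7% of all Mrpl genes lay below 0. In the large subunit, the genes around the peptidyl transferase centre (Mrpl2, Mrpl3, Mrpl16 and Mrpl27) all lay below 0, with a median of -0.48. Mrpl16 measured 10.55, 13.36 and 10.56 FPKM in BBR mice and 15.34, 17.54 and 16.64 FPKM in SASP mice (-0.49, limma adjusted p = 0.0590). Mrpl3 measured 16.87, 17.25 and 12.06 FPKM against 19.35, 21.92 and 22.94 FPKM (-0.46, limma adjusted p = 0.0990). Both had their groups apart, whereas those of Mrpl2 overlapped, with 29.42, 26.93 and 24.60 FPKM against 30.43, 29.78 and 27.59 FPKM. None of the 3 stalk genes passed the test. The highest in level, Mrpl12, whose protein binds elongation factors and has also been found with the mitochondrial RNA polymerase, measured 79.33, 71.89 and 57.22 FPKM against 93.79, 86.51 and 89.24 FPKM (-0.38, limma adjusted p = 0.112). Mrpl11 at the stalk base measured 6.81, 7.08 and 4.38 FPKM against 9.65, 8.41 and 8.87 FPKM (-0.51, limma adjusted p = 0.106). Groups were apart for both genes. Mrpl10, which anchors Mrpl12, measured 31.93, 32.26 and 27.66 FPKM against 26.05, 29.44 and 26.83 FPKM and so lay on the other side of 0 with overlapping groups (0.15, limma adjusted p = 0.355).

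The central protuberance genes (Mrpl18, Mrpl38, Mrpl40, Mrpl46, Mrpl48, Mrpl52 and Mrpl55) all lay below 0, with a median of -0.22. Among all Mrpl genes the share below 0 was 83.7% and the median -0.24. After Mrpl18, the largest difference was that of Mrpl46, with 16.43, 15.01 and 12.16 FPKM against 22.34, 21.15 and 19.24 FPKM (-0.50, limma adjusted p = 0.0624). Of the 7 genes around the exit tunnel 6 lay below 0, with a median of -0.19. Mrpl47, with 15.99, 14.33 and 13.10 FPKM against 19.48, 20.09 and 18.18 FPKM, had its groups apart (-0.39, limma adjusted p = 0.0699). In Mrpl45, whose protein ties the ribosome to the inner membrane, the values were 10.80, 11.32 and 8.90 FPKM against 12.38, 13.63 and 12.87 FPKM (-0.31, limma adjusted p = 0.144). The seventh was Mrpl24, the gene with the highest fold change of all 78.

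In the small subunit, the 5 genes listed for the head all lay below 0, with a median of -0.30. Of all Mrps genes 93.1% lay below 0. The list did not hold every head protein, and Dap3, described below, was left out (-0.04). Mrps7 measured 15.18, 16.06 and 14.56 FPKM against 21.10, 19.23 and 20.11 FPKM (-0.38, limma adjusted p = 0.0587). Mrps10 measured 16.53, 15.83 and 15.24 FPKM against 21.00, 22.63 and 19.64 FPKM (-0.39, limma adjusted p = 0.0596). Mice of each group were close together in both genes, and the groups did not touch. Mrps24 and Mrps9, also of the head, had overlapping groups and log2 fold changes of -0.02 and -0.07. Of the 5 platform genes 4 lay below 0, with a median of -0.35. The fifth was Mrps6, with 75.47, 59.28 and 124.70 FPKM in BBR mice and 71.86, 75.63 and 76.83 FPKM in SASP mice (0.14, SE 0.25). BBR mouse 3 was the highest of the 6 for it, and the other 2 BBR mice were within or below the SASP range, so that the log2 fold change without this mouse was -0.16. Mrps6 shares 159 exon bases on the same strand with Slc5a3, an inositol transporter gene, which measured 12.63, 8.75 and 27.45 FPKM against 12.58, 14.22 and 15.79 FPKM. Both genes peaked in the same mouse, and how reads of the shared exon were divided between them was not tested.

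Mrpl57 and Mrpl58, once known as Mrp63 and Ict1, and mitoribosomal genes under other symbols all had log2 fold changes below 0, and none passed the test. Mrpl58, a large subunit protein with peptidyl-tRNA hydrolase activity, measured 25.01, 23.36 and 21.98 FPKM against 29.08, 27.69 and 29.25 FPKM (-0.28, groups apart), and Mrpl57 7.07, 6.46 and 5.52 FPKM against 8.08, 7.34 and 7.14 FPKM. Gadd45gip1 of the large subunit measured 5.35, 5.87 and 4.91 FPKM against 7.13, 7.02 and 7.10 FPKM, with groups apart (-0.34, limma adjusted p = 0.0976). Chchd1 of the small subunit was alike, with 26.21, 27.77 and 23.67 FPKM against 33.21, 30.99 and 32.32 FPKM (-0.31, limma adjusted p = 0.0928). Dap3, a GTP-binding head protein first known from cell death, showed next to no difference between the group means, with 34.01, 36.15 and 26.72 FPKM against 32.60, 33.49 and 32.61 FPKM (-0.04). Ptcd3 measured 15.17, 14.90 and 8.91 FPKM against 15.70, 16.92 and 15.81 FPKM (-0.33, limma adjusted p = 0.290) and Aurkaip1 35.67, 35.36 and 36.23 FPKM against 39.80, 35.89 and 40.31 FPKM (-0.11). For Dap3, BBR mice 1 and 2 were above all SASP mice and BBR mouse 3 below them, and without that mouse the log2 fold change was 0.09. For Ptcd3 all BBR mice were below all SASP mice, BBR mouse 3 by far the most, and without that mouse the log2 fold change was -0.10. Mrps30 gave 10.53, 10.21 and 8.06 FPKM against 10.31, 11.25 and 9.57 FPKM (-0.11), and Mrps36, the enzyme component, 32.57, 34.71 and 27.80 FPKM against 36.03, 36.00 and 31.09 FPKM (-0.12).

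Among the other proteins that mitochondria added to the ribosome, the same order of BBR below SASP mice recurred at several levels. Mrpl51 measured 38.33, 37.25 and 34.98 FPKM in BBR mice and 50.53, 46.82 and 46.49 FPKM in SASP mice (-0.37, limma adjusted p = 0.0529). Mrps22, a small subunit protein, measured 10.04, 10.32 and 6.97 FPKM against 12.95, 14.58 and 13.15 FPKM (-0.54, limma adjusted p = 0.0750). Mrpl37 measured 18.25, 19.43 and 11.93 FPKM against 25.44, 22.44 and 20.64 FPKM (-0.47, limma adjusted p = 0.148). In each of the 3 the groups were apart, but in Mrps22 and Mrpl37 BBR mouse 3 was far below the other BBR mice. Without BBR mouse 3 the log2 fold changes of Mrps22 and Mrpl37 were -0.38 and -0.26. In Mrpl53 and Mrpl20, by contrast, BBR mouse 3 held the highest BBR value. Mrpl53 gave 21.63, 21.84 and 22.66 FPKM against 28.90, 30.51 and 25.24 FPKM (-0.34, limma adjusted p = 0.0830). At the other end Mrps25 measured 8.32, 9.79 and 6.74 FPKM against 8.77, 8.05 and 8.23 FPKM (-0.02) and Mrpl39, a protein related to threonyl-tRNA synthetase, 23.35, 24.06 and 30.72 FPKM against 23.93, 25.91 and 24.46 FPKM (0.06). The groups overlapped for both, and for Mrpl39 BBR mouse 3 was the highest of the 6. Mrps25 shares 3533 exon bases with Nr2c2 on the opposite strand. Mrpl32, a bacterial-type protein that a membrane protease trims before it enters the ribosome, measured 23.64, 22.33 and 22.14 FPKM against 27.46, 30.33 and 27.19 FPKM (-0.31, limma adjusted p = 0.0836). Its BBR mice were close together, BBR mouse 3 included. Mrps2, with 10.14, 10.44 and 6.39 FPKM against 9.57, 10.99 and 10.19 FPKM, had a log2 fold change of -0.20 with that mouse and 0.0069 without it. Mrpl10, Mrpl14, Mrpl15 and Mrpl49, like Mrpl39, were among the 10 genes above 0, by 0.03 to 0.15.

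Much of the spread came from BBR mouse 3. It was the lowest of the 6 mice for 69 of the 78 genes. The median distance of a gene from its mean over the 6 mice was -0.04, -0.03 and -0.32 log2 units in BBR mice 1, 2 and 3 and 0.12, 0.13 and 0.09 in SASP mice 1, 2 and 3. BBR mouse 3 was below the mean of BBR mice 1 and 2 for 73 genes (93.6%, against 69.5% of all genes). Against the SASP mean, the median log2 difference of the genes was -0.44 for BBR mouse 3 and -0.13 for the mean of BBR mice 1 and 2, where all genes gave -0.04 and 0.16. Both parts of the BBR group thus lay under the median of all genes, by unequal amounts. The median SD of a gene on the log2 scale was 0.19 within BBR and 0.087 within SASP mice, and the SD was larger within BBR mice for 66 of 78 genes (84.6%, against 71.9% of all genes).

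**Figure D3:**
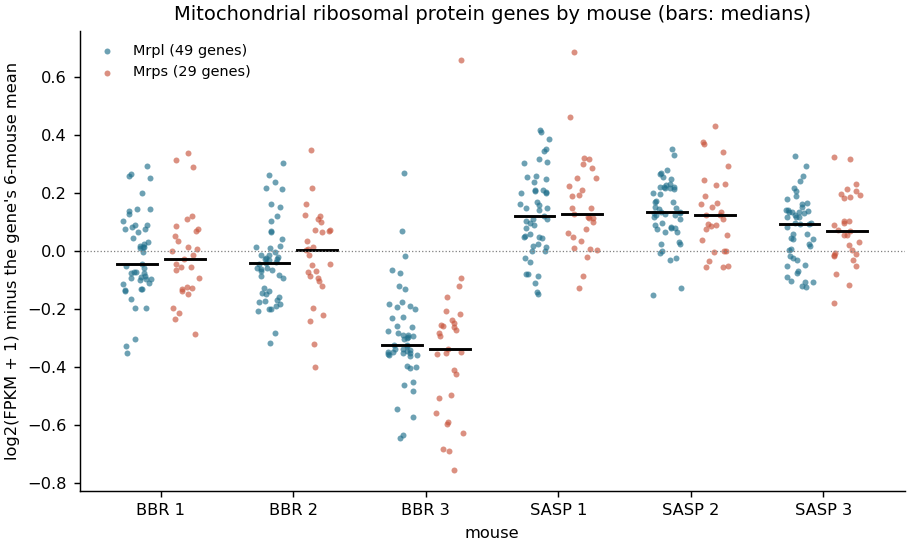
Level of each gene in each mouse (x axis) as log2(FPKM + 1) minus the gene's mean over the 6 mice (y axis), for 49 Mrpl genes and 29 Mrps genes, with bars at the medians. In BBR mouse 3 nearly all points lie below 0, around a median of -0.32, while BBR mice 1 and 2 lie around -0.04 and -0.03 and the SASP mice between 0.09 and 0.13.

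Without BBR mouse 3 the genes split into a larger set lower and a small set higher in BBR mice. With 2 BBR mice against 3 SASP mice, limma called 16 of the 78 genes lower (20.5%, against 11.5% of all genes) and 4 higher (5.13%, against 22.3% of all genes). The 16 comprised the 4 genes called with all mice, Mrpl18, Mrpl27, Mrps18b and Mrps28, and also Mrpl11, Mrpl16, Mrpl20, Mrpl32, Mrpl46, Mrpl47, Mrpl51, Mrpl53, Mrps7, Mrps10, Mrps22 and Mrps27. The share of the genes below 0 was then 76.9%, 60 of 78, and their median -0.13.

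The 4 genes called higher without BBR mouse 3 were Mrpl24, Mrpl9, Mrpl43 and Mrps31. Mrpl24, an exit tunnel protein, measured 85.67, 84.10 and 65.34 FPKM in BBR mice and 64.40, 63.95 and 66.14 FPKM in SASP mice. BBR mice 1 and 2 were far above all SASP mice and BBR mouse 3 was among them, so the log2 fold change was 0.26 with all mice (limma adjusted p = 0.201) and 0.38 without BBR mouse 3 (limma adjusted p = 0.012). Mrpl9, a large subunit protein with a bacterial homologue, measured 58.40, 57.14 and 38.56 FPKM against 46.22, 43.34 and 44.02 FPKM. Here BBR mouse 3 was the lowest of all, and the log2 fold change was 0.18 with it and 0.37 without it. Mrpl43 measured 36.66, 35.73 and 24.75 FPKM against 28.92, 30.47 and 28.69 FPKM, for 0.12 and 0.29. Mrps31 measured 16.82, 16.95 and 8.57 FPKM against 13.13, 13.49 and 11.46 FPKM, for 0.09 and 0.39. In all 4, BBR mice 1 and 2 were above the SASP range, a form that a call higher without BBR mouse 3 favours. Mrpl10 and Mrpl15 had it too without being called. Some of the 4 genes called higher share exon bases with a neighbour on the opposite strand. Since strand use in the counting is not stated, their reads cannot be told apart. Mrpl24 shares 463 bases with Rrnad1, which measured 8.44, 8.55 and 5.39 FPKM against 5.83, 5.22 and 4.83 FPKM, while Mrpl9 shares 157 bases with Oaz3 and Mrpl43 358 bases with Twnk, the gene of the mitochondrial DNA helicase. The same holds for both Mrpl genes called lower and for Mrps18b, which shares 578 bases with the antisense gene Gm16279. Mrpl18 shares 124 bases with Tcp1, a subunit of the cytosolic chaperonin that measured 59.74, 60.55 and 43.73 FPKM against 76.84, 78.18 and 73.72 FPKM, and Mrpl27 shares 75 bases with Eme1, at 1.27, 0.82 and 0.53 FPKM against 2.96, 2.50 and 2.24 FPKM. In all, exons of 33 of the 78 genes overlapped another annotated gene, 21 a gene of the table, 3 of them on the same strand.

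Lists of other genes of ribosomes and of mitochondrial gene expression were read beside the mitoribosomal genes. Cytosolic ribosomal protein genes, 80 tested of 83 in the table, had 56 below 0, a median of -0.05 and 0 called (2 at an unadjusted p under 0.05). Mitochondrial translation factors had 7 of 13 below 0, a median of -0.04 and 0 called (2 at an unadjusted p under 0.05). The smallest p-values among them were those of Gfm1, the elongation factor that moves the ribosome along, with 15.39, 20.14 and 12.18 FPKM against 26.79, 23.55 and 24.61 FPKM (-0.65, limma adjusted p = 0.0646), and of Tsfm, the exchange factor of Tufm, with 11.53, 12.70 and 9.99 FPKM against 20.16, 15.71 and 15.19 FPKM (-0.53, limma adjusted p = 0.0657). Factors that assemble the mitoribosome had 13 of 27 below 0, a median of 0.03 and 0 called (3 at an unadjusted p under 0.05, all lower, with Fastkd2 first at -0.58). Mitochondrial tRNA synthetases had 10 of 17 below 0, a median of -0.01 and 0 called (4 at an unadjusted p under 0.05, all lower, with Tars2 at -0.48 and Yars2 at -0.58). The medians of these 4 lists lay between those of the mitoribosomal genes and of all genes, 0.10, and differences between lists were not tested.

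Genes that express and maintain mitochondrial DNA had 9 of 19 below 0, a median of 0.04 and 1 called. This was Pnpt1, an RNA-degrading enzyme of mitochondria that is also induced by interferon, with 10.49, 11.64 and 8.03 FPKM against 18.43, 16.51 and 16.27 FPKM (-0.72, limma adjusted p = 0.0360). A list of other mitochondrial proteins, made of outer membrane channels, import and chaperone proteins, prohibitins, the cristae protein of Immt and the enzymes of Cs and Sdha, had 15 of 18 below 0, a median of -0.31, 3 called lower and 1 higher. Hspd1, the matrix chaperonin, measured 61.94, 84.05 and 38.70 FPKM against 171.79, 144.02 and 144.88 FPKM (-1.37, limma adjusted p = 0.0294). Its partner Hspe1 fell with it (-1.29, limma adjusted p = 0.0247), as did the import channel gene Tomm40, with 19.16, 19.65 and 13.84 FPKM against 32.16, 30.20 and 30.59 FPKM (-0.80, limma adjusted p = 0.0257). Vdac3, an outer membrane channel, rose, with 216.24, 195.97 and 165.79 FPKM against 120.08, 132.41 and 109.93 FPKM (0.66, limma adjusted p = 0.0344). Of 9 regulators of mitochondrial biogenesis, 4 were below 0 and 1 was called. Myc, which drives ribosome and mitochondrial protein genes in growing cells, measured 3.61, 3.29 and 3.78 FPKM against 5.98, 8.35 and 7.77 FPKM (-0.87, limma adjusted p = 0.0230). Its BBR mice were close together, BBR mouse 3 included. Nrf1 and Gabpa, whose motifs were searched above, had log2 fold changes of 0.08 and 0.09. Ppargc1a, a coactivator of both, measured 23.57, 10.79 and 9.77 FPKM against 9.20, 8.53 and 8.24 FPKM (0.60, limma adjusted p = 0.216). All BBR mice were above all SASP mice, BBR mouse 1 by far the most.

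**Figure D4:**
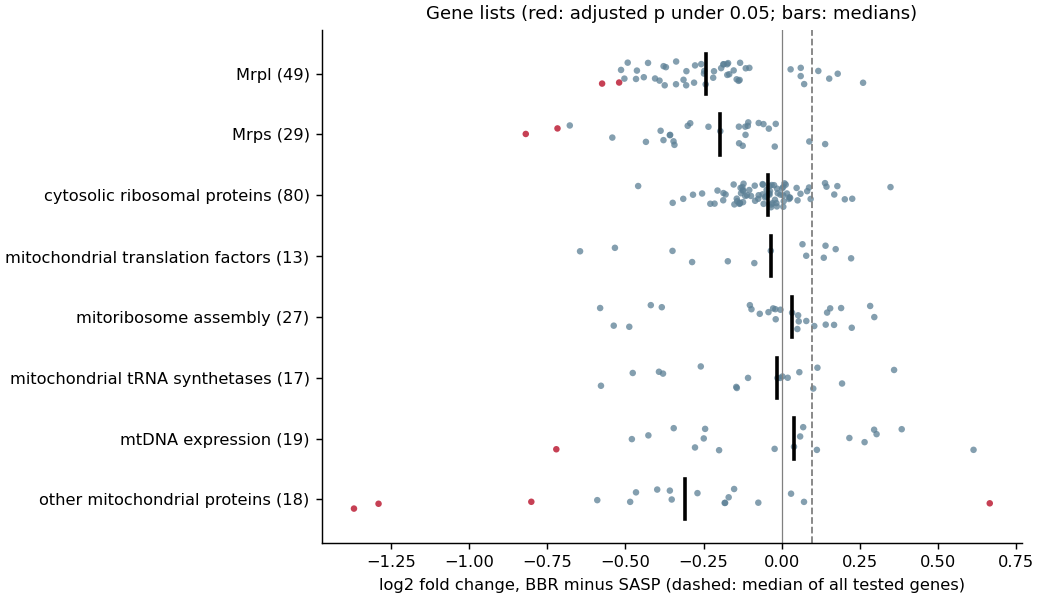
Log2 fold change (x axis, BBR minus SASP, log2(FPKM + 1) scale) of every tested gene of 8 lists, with the number tested in brackets, black bars at the list medians, red points at an adjusted p under 0.05 and a dashed line at the median of all genes, 0.10. The Mrpl, Mrps and other mitochondrial protein lists have medians of -0.24, -0.20 and -0.31, and the other 5 lie between -0.05 and 0.04.

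The groups also differed in markers of cell types and of dividing cells. All 10 smooth muscle markers lay higher in BBR mice (median 1.32, 0 called), with summed levels of 2888 to 6808 FPKM against 757 to 2321 FPKM. All 8 stromal markers did so as well (median 0.82, 4 called), summing to 270 to 362 FPKM against 121 to 213 FPKM. The 12 proliferation genes all lay lower (median -1.56, 8 called), summing to 73.9 to 138 FPKM in BBR mice and 271 to 331 FPKM in SASP mice. Of 8 leukocyte markers tested of 10, 6 lay lower (median -0.41, 0 called, 3 at an unadjusted p under 0.05), with sums over the 10 of 76.0 to 119 FPKM against 128 to 144 FPKM. Epithelial markers had a median of 0.03, with 2 called higher and 1 lower. The levels of these lists followed the mice differently. On the scale of mean log2(FPKM + 1), the mitoribosomal genes stood at 4.51, 4.50 and 4.22 in BBR mice and 4.67, 4.67 and 4.605 in SASP mice. The proliferation genes stood at 2.94, 3.15 and 2.07 against 4.39, 4.35 and 4.07, and the smooth muscle markers at 7.16, 7.45 and 8.30 against 5.45, 6.94 and 6.62. The cytosolic ribosomal protein genes, at 8.75, 8.67 and 8.03 against 8.64, 8.48 and 8.49, were lowest in BBR mouse 3 too, but not lower in BBR mice 1 and 2. The mean level of the 10 smooth muscle markers was also added to the model as a covariate. Then 50 of the 78 genes were below 0, against 38.2% of all genes, and their median was -0.12 against 0.11 over all genes. Of the 78 genes 0 were called, where 0.141% of all genes were called lower. The marker level was higher in every BBR mouse than in every SASP mouse, so this fit cannot separate it from the drug. The part of cell composition and of cell division in the mitoribosomal difference was not tested.

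**Figure D5:**
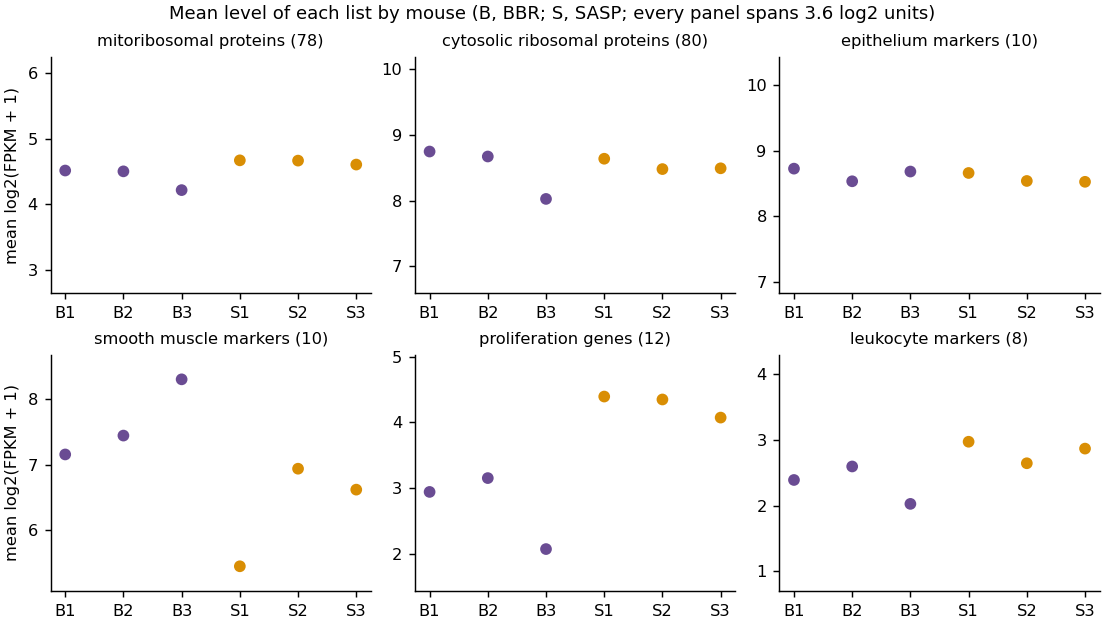
Mean log2(FPKM + 1) (y axis, of equal length in every panel) of 6 gene lists in each mouse (B, BBR; S, SASP; number of genes in brackets). The mitoribosomal genes lie between 4.22 and 4.67 and are lowest in BBR mouse 3, where the smooth muscle markers are highest, at 8.30, and the proliferation genes lowest, at 2.07.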

How the data were processed

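Colorectal RNA of 6 mice, 3 per group as the treatment labels give them, was analysed. The deposited FPKM values were made by the authors with Bowtie2 2.2.5 and RSEM 1.2.12 (mm9, per the submitters' processing notes). The labels name an Illumina TruSeq kit and the methods a depletion of ribosomal RNA with BGISEQ-500 sequencing, and strandedness is not stated. FPKM are not counts, and reads per gene were only approximated from the smallest steps of genes with transcripts under 1500 bases, so no count test was used. Rounded, scaled values of this kind also hide how much of each library went to a few genes.

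Genes with at least 1 FPKM in at least 3 of 6 samples were tested with limma 3.58.1 (R 4.3.3) on log2(FPKM + 1), with a variance trend, two-sided and adjusted by Benjamini-Hochberg over 12072 genes. Fold changes on this scale understate those of low genes. With 3 mice a group the smallest exact permutation p is 0.1, so such tests were not used. On simulated data of 12072 genes, 71% of 100 genes changed by 1 log2 unit and 93% of those changed by 2 units were recovered, with 6.82% false calls. The members and all gene lists were chosen with earlier results of these data known, and the grouping by place in the ribosome was made after their values were seen. Named were genes past the threshold, for each symbol class the 3 largest rises and falls and the 3 highest and lowest levels, proteins under other symbols, and genes of the other lists past the threshold or smallest in p. Mrpl2, Mrpl3, Mrpl16, Mrpl14, Mrpl15, Mrpl20, Mrpl32, Mrpl37, Mrpl39, Mrpl43, Mrpl45, Mrpl46, Mrpl47, Mrpl49, Mrpl51, Mrpl53, Mrps7, Mrps9, Mrps10, Mrps22, Mrps24 and the neighbouring genes were added after their values were seen. Promoters were matched by gene ID, exon overlaps were read from GENCODE M21, and mRNAs of the mitochondrial genome were not analysed here. Of 4 striated muscle markers 2 were tested, with 0 called. The alternatives were another pseudocount (0.1), no filter, a mean of at least 5 FPKM, quantile and median-ratio scaling, sample weights, no variance trend, each mouse left out, and, chosen after seeing the data, a smooth muscle covariate (mean log2 level of its 10 markers).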

Additional observations from a re-analysis of the deposited data

How the results depend on the processing

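Among the mitoribosomal genes the median stayed below that of all genes under every one of the 14 alternatives, by 0.22 to 0.35 log2 units, while the number of calls did not hold. Calls lower in BBR mice were 2 Mrpl and 2 Mrps genes. They were 1 and 0 without the filter (2.10% of all genes lower) and 1 and 1 without the variance trend (4.65%). Quantile normalization gave 13 and 8 (8.23%) and median-ratio scaling 21 and 11 (9.83%). Sample weights gave 23 and 13 (20.6%), with a weight of 5.32 for BBR mouse 1 and of 0.129 for BBR mouse 3. The covariate for smooth muscle left 0 and 0 (0.141%). Among genes averaging 5 FPKM or more, 3 Mrpl and 3 Mrps genes were called lower (7.69% of the 78, against 5.64% of genes tested). A pseudocount of 0.1 left 1 Mrpl gene and 2 Mrps genes (4.62% of all genes lower). With weights 6 Mrpl and 3 Mrps genes were called higher, 11.5% of the 78 against 38.4% of all genes. Leaving out 1 mouse gave 0 to 10 Mrpl and 0 to 6 Mrps genes lower and 0 to 3 and 0 to 1 higher, with every call coming from the fit without BBR mouse 3. All genes called numbered 1069, and 608 without the filter, 1737 after quantile normalization, 1684 after median-ratio scaling, 7126 with weights, 19 with the covariate and 51 to 4018 with 1 mouse left out. The Mrpl median moved to -0.37 after median-ratio scaling and -0.13 with the covariate. Of the genes called, Mrpl27 lost its call with the pseudocount of 0.1, without the filter and without the trend, Mrps18b without the filter and Mrps28 without the filter and without the trend.

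Small differences changed sign. With weights Dap3 stood at 0.056, Mrps25 at 0.023, Mrps30 at 0.078, Mrps36 at 0.022 and Mrps6 at -0.031, and with the covariate at 0.11, 0.18, 0.015, 0.034 and -0.27 in the same order. Mrps31 was -0.039 after median-ratio scaling. With 1 mouse left out, Dap3 ran from -0.12 to 0.089, Mrps2 from -0.31 to 0.0069, Mrps25 from -0.14 to 0.10, Mrps30 from -0.17 to 0.0016, Mrps31 from -0.065 to 0.39 and Mrps6 from -0.16 to 0.37. The causes of these changes were not tested. No paired analysis was possible because the labels give no replicate numbers that are shared between the groups. About 80 reads in the thinnest gene and 3 mice a group set the precision.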
